A study of Gallus gallus with 5 samples.

Results

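The cells described here are early mesoderm of the chicken gastrula with a high level of MSGN1 and few or no transcripts of MEOX1 and TCF15. They were selected on their expression: a cell needed at least 2000 unique molecular identifiers (UMIs, each standing for 1 captured mRNA molecule) and MSGN1 at 1000 or more UMIs per 1000000 of the cell's UMIs (CPM). It also needed fewer than 3 UMIs of MEOX1 plus TCF15, under 500 CPM of GSC plus CER1, under 300 CPM of GNOT2 plus ADMP and fewer than 3 UMIs of SOX17. In the heterochronic grafts only cells with 0 eGFP UMIs were taken. This gave 778 members among the 4929 cells that passed the same depth and eGFP limits, or 15.8% (95% Clopper-Pearson interval 14.8 to 16.8). All levels of members are therefore descriptions of cells chosen by these genes, and no test is given for them.

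The study compared homochronic grafts, of HH4 somite progenitors into an HH4 host, with heterochronic grafts, of HH8 progenitors into an HH4 host (HH, Hamburger-Hamilton stage). Tissue from the 90% level of the primitive streak of GFP-expressing donors, which had been incubated 20 hours when at HH4 and 30 hours when at HH8, was placed at the same level of wild-type hosts that had been incubated for 20 hours and were kept in New culture. The grafted region, holding donor and host cells, was dissected at 0 hr or 3 hr, and 5 to 10 grafts were pooled for each library. Single-cell RNA-seq libraries of 3′ mRNA ends (10x Genomics) were made, 1 for each graft and time. The libraries from HH4 donors (HH4-HH4) are called homochronic 0 hr and homochronic 3 hr, and those from HH8 donors (HH8-HH4) heterochronic 0 hr and heterochronic 3 hr. Members of the homochronic libraries can be donor or host cells. Those of the heterochronic libraries had no detected eGFP and are taken as host cells, although a donor cell with no captured eGFP would also be counted. The homochronic 0 hr library was deposited in replicates 1 and 2, which shared 2755 of the 2757 cell barcodes of replicate 2, so they were counted as 1 library and replicate 2, whose genes are named, was used. No other pair of libraries shared more than 2 barcodes. With 1 library per condition, differences between conditions have no replicate check, and the intervals given cover counting error only.

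In the chicken gastrula, cells leave the epiblast through the primitive streak and become mesoderm. MSGN1 (mesogenin 1) is a basic helix-loop-helix factor of the presomitic mesoderm, the tissue from which somites are cut, and acts there with TBX6 and the Notch ligand DLL1. MEOX1, a homeobox factor, and TCF15 (paraxis), a helix-loop-helix factor, are known from the later steps towards the somite. The remaining limits of the rule remove cells with transcripts of the prechordal and anterior genes GSC and CER1, of the node genes GNOT2 and ADMP, and of the endoderm gene SOX17.

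Members made up 14.9% (13.6 to 16.3) of cells in homochronic 0 hr (402 of 2698), 7.33% (4.53 to 11.1) in homochronic 3 hr (20 of 273), 19.8% (17.9 to 21.7) in heterochronic 0 hr (341 of 1726) and 6.47% (3.66 to 10.4) in heterochronic 3 hr (15 of 232). The libraries at 3 hr thus had the lower shares, and hold 35 of the 778 members. MSGN1 cells that met all other limits but had 3 or more UMIs of MEOX1 plus TCF15, called MEOX1/TCF15 cells here, made up 10.4% (9.29 to 11.6), 32.6% (27.1 to 38.5), 13.2% (11.6 to 14.8) and 8.19% (5.00 to 12.5) of the same libraries in that order. Of all MSGN1 cells within the node, prechordal and SOX17 limits, members were 58.9% (55.1 to 62.6) in homochronic 0 hr, 60.0% (55.9 to 64.1) in heterochronic 0 hr, 44.1% (27.2 to 62.1) in heterochronic 3 hr and 18.3% (11.6 to 26.9) in homochronic 3 hr. A limit in UMIs is stricter in a deeper cell, and the median depth of members was 13449.5 UMIs in homochronic 0 hr, 32382 in homochronic 3 hr, 8010 in heterochronic 0 hr and 12881 in heterochronic 3 hr. With MEOX1 plus TCF15 limited to 100 CPM in place of 3 UMIs, the shares in that order were 11.2%, 9.89%, 12.1% and 6.47%. With each cell thinned to 2000 UMIs before the rule was applied, they were 25.1%, 34.8%, 29.5% and 17.2%. After thinning, MEOX1 was found in only 38.2% and TCF15 in 33.7% of the MEOX1/TCF15 cells of homochronic 3 hr. The limit of 3 UMIs then admits many of these cells. The thinned shares thus cannot say whether the lower share of members in homochronic 3 hr was kept. With the limit of 100 CPM the homochronic shares were closer, at 9.89% (27 cells) at 3 hr and 11.2% (303 cells) at 0 hr. No interval was computed for them, and 100 CPM stands for fewer UMIs in a shallower cell. Whether the lower share was kept is thus not settled by this limit either.

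**Figure D1:**
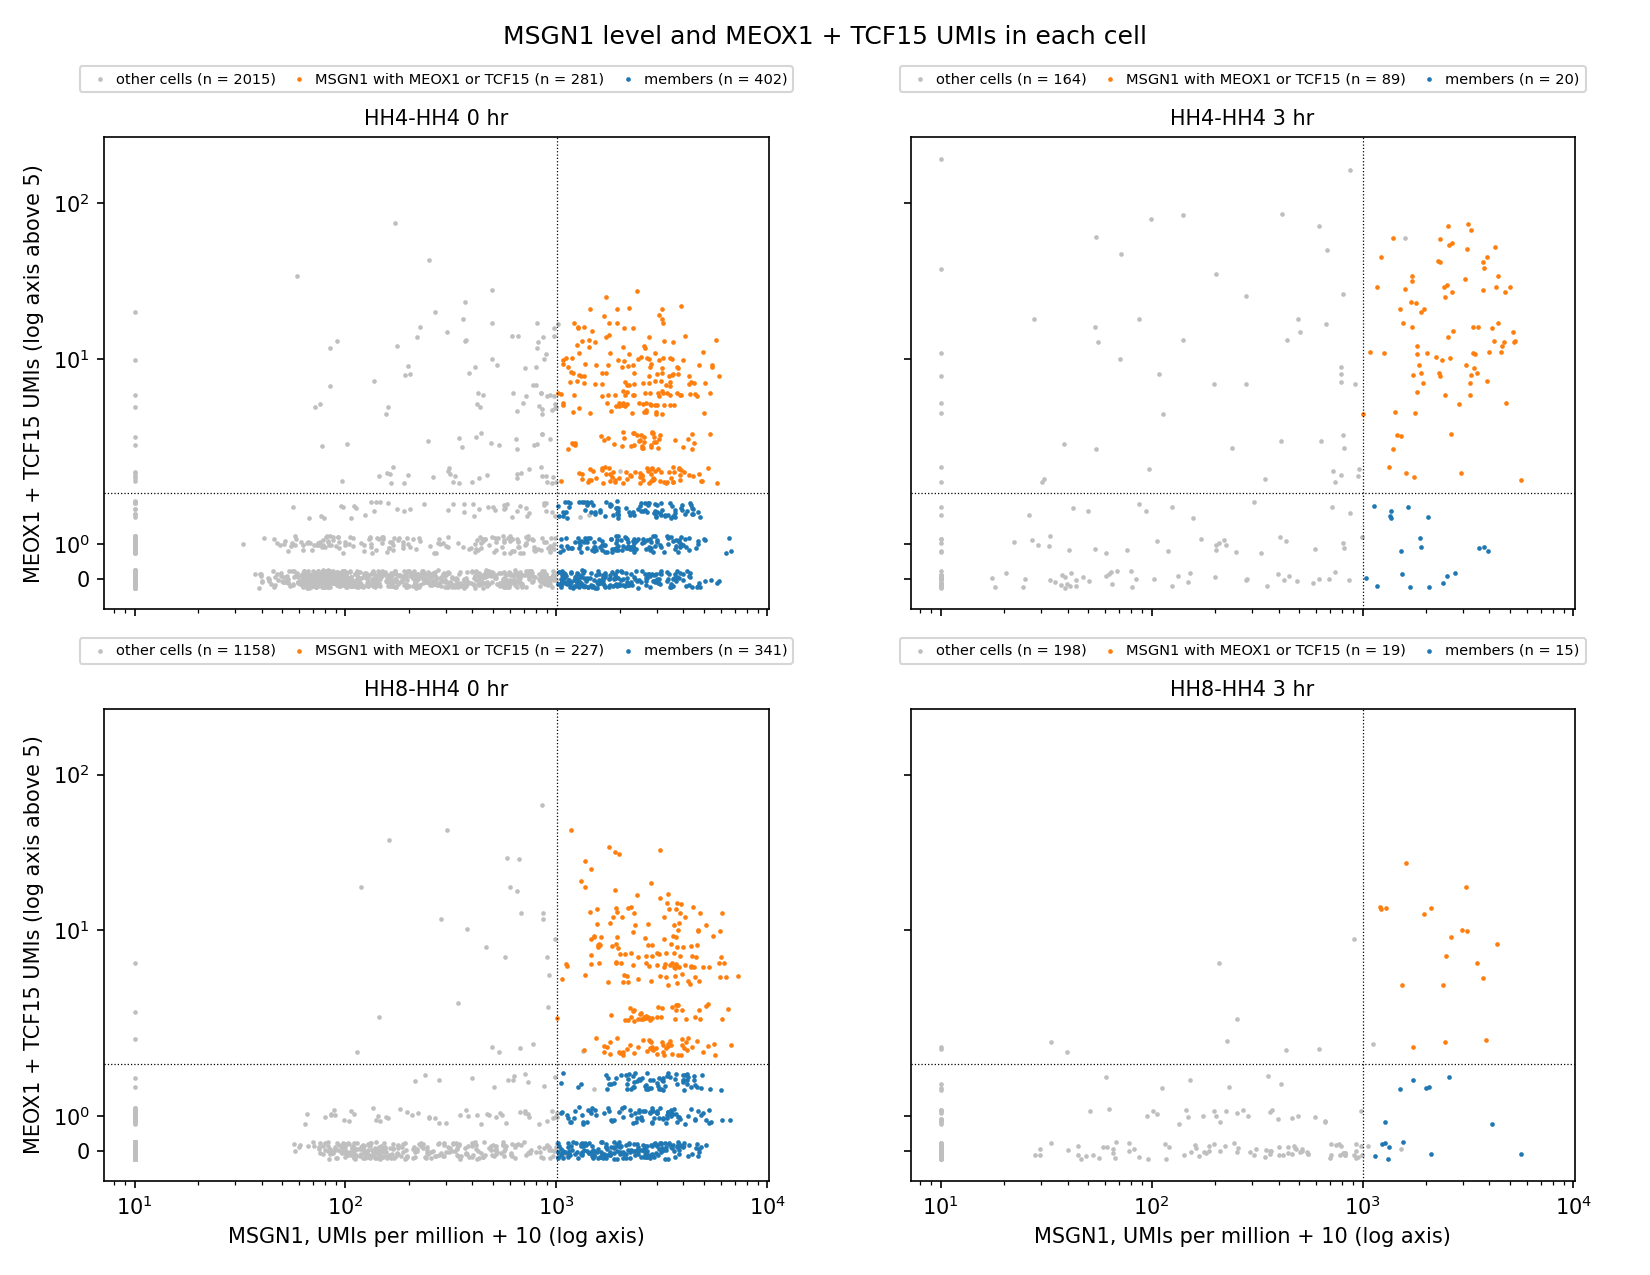
MSGN1 level (x axis, UMIs per 1000000 plus 10, log axis) and MEOX1 plus TCF15 UMIs (y axis, log above 5, points spread slightly in height) of each of the 4929 cells, 1 point per cell and 1 panel per library. Members (blue) lie to the right of the MSGN1 limit of 1000 CPM and under 3 UMIs of MEOX1 plus TCF15, with no gap at either limit.

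The limits cut through continuous ranges. In homochronic 0 hr, 52 members had MSGN1 at 1000 to 1200 CPM (median 1080.2), and 54 cells that met every other limit had 800 to 1000 CPM (median 881). At the other limit, 90 members had 2 UMIs of MEOX1 plus TCF15 with a median MSGN1 of 2376 CPM, and 72 MEOX1/TCF15 cells had 3 UMIs with a median of 2622 CPM. Members with 0 UMIs of MEOX1 plus TCF15 numbered 190 of 402 in homochronic 0 hr, 8 of 20 in homochronic 3 hr, 181 of 341 in heterochronic 0 hr and 8 of 15 in heterochronic 3 hr.

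The heterochronic 3 hr library stood apart. Its other cells had 265 CPM of LEFTY1 and 19.2 of CDX4, against 18.5 and 477 in homochronic 3 hr, although the labels give the hosts of both the same stage and time. Whether the stage or the label of that library is as given was not tested, and this bears on each of its values. Both 3 hr libraries also hold members that go against the name of the group. In heterochronic 3 hr, 6 of the 15 members, all among the 7 shallowest with 3955 to 11099 UMIs, had 2793 to 7006 CPM of MIXL1, a homeobox gene of streak mesendoderm. Summed, these 6 cells held 75.5 CPM of DLL1 and 981 CPM of CDH2, against 1349 and 1476 CPM in the other 9, whose MIXL1 was 474 CPM. Their MSGN1 rested on 51 UMIs in all. In homochronic 3 hr a single member (71574 UMIs) held 1160 CPM of MIXL1 and 83 of the 88 MIXL1 UMIs of the group. Without it the level of MIXL1 in the other 19 members was 8.68 CPM in place of 135.9, and that of CHRD 19.1 in place of 54.1.

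All 4 marker genes were higher in members than in cells under the MSGN1 limit of each library. MSGN1, on which the cells were chosen, stood at 2250.4 (2212 to 2289.8) CPM in homochronic 0 hr, 1685 (1586 to 1788) in homochronic 3 hr, 2543 (2486 to 2602) in heterochronic 0 hr and 1924 (1754 to 2106) in heterochronic 3 hr, with all UMIs of the members of a library summed and 95% exact Poisson intervals. The lowest, median and highest member had 1009, 2004 and 6716 CPM in homochronic 0 hr. In each library the MEOX1/TCF15 cells were higher still, from 2389 in heterochronic 3 hr to 3051 CPM in heterochronic 0 hr, so that members were not the cells with most MSGN1.

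DLL1, which encodes a Notch ligand, reached 1345 (1315 to 1376), 1237 (1153 to 1326), 1585 (1539.7 to 1631) and 1142 (1012 to 1284) CPM in members of homochronic 0 hr, homochronic 3 hr, heterochronic 0 hr and heterochronic 3 hr. Cells under the MSGN1 limit had 431, 508, 489 and 172 CPM in the same order. MEOX1/TCF15 cells held 1427 (1392 to 1464), 1009 (978 to 1041), 1599.9 (1547 to 1654) and 1235 (1138 to 1339) CPM, a log2 ratio of members to them of -0.09, 0.29, -0.01 and -0.11. Per cell in homochronic 0 hr, the lowest, median and highest members had 0, 1246 and 6190.5 CPM.

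CXCL14, a chemokine gene, was at 639 (619 to 661), 408 (360.0 to 460.0), 584 (557 to 612) and 458 (378 to 552) CPM in members, in the same order of libraries. Cells under the MSGN1 limit held 193, 92.9, 116 and 109 CPM. Each member value lay above that of the cells under the MSGN1 limit and below that of the MEOX1/TCF15 cells.

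AGRP, which encodes agouti-related peptide, an antagonist of melanocortin receptors, followed the same order more steeply. Members held 1463 (1432 to 1495), 369 (324 to 419), 1259 (1219 to 1300.2) and 1007 (885 to 1141) CPM, MEOX1/TCF15 cells 2349, 852, 2216 and 2146, and cells under the MSGN1 limit 385, 170.2, 273 and 313. Against all other cells together, AGRP was higher in members by log2 1.21, 1.07 and 0.97 in homochronic 0 hr, heterochronic 0 hr and heterochronic 3 hr, and at -0.07 in homochronic 3 hr, where 89 of the 253 other cells were MEOX1/TCF15 cells. Of the 20 members of homochronic 3 hr, 5 had no AGRP UMI. POMC, the precursor of the melanocortins, was also lower in members than in MEOX1/TCF15 cells, with 97.9 against 219 CPM in homochronic 0 hr and 54.8 against 139 in heterochronic 0 hr.

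Free RNA gives UMIs in cells that do not express a gene, so the markers were also counted in cells with 3 or more UMIs of SOX17, after thinning each cell to 2000 UMIs. In homochronic 0 hr, DLL1 was then found in 84.8% of members and 4.75% of 295 SOX17 cells, CXCL14 in 62.7% and 3.39%, HOXB1 in 52% and 4.41%, and AGRP in 83.1% and 20.3%. Unthinned, the shares were 98.5% and 26.1% for DLL1, 94.8% and 22% for CXCL14, 92.3% and 23.7% for HOXB1, and 98% and 55.6% for AGRP, at median depths of 13449.5 and 14392 UMIs. TBX6, the T-box partner of MSGN1, separated these groups far less, with 83.6% of members and 71.2% of SOX17 cells unthinned and, after thinning, 27.9% of members and 23.4% of SOX17 cells. MEOX1 and TCF15, held down by the rule, were in 3.48% and 6.22% of thinned members and in 1.02% and 1.36% of thinned SOX17 cells.

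**Figure D2:**
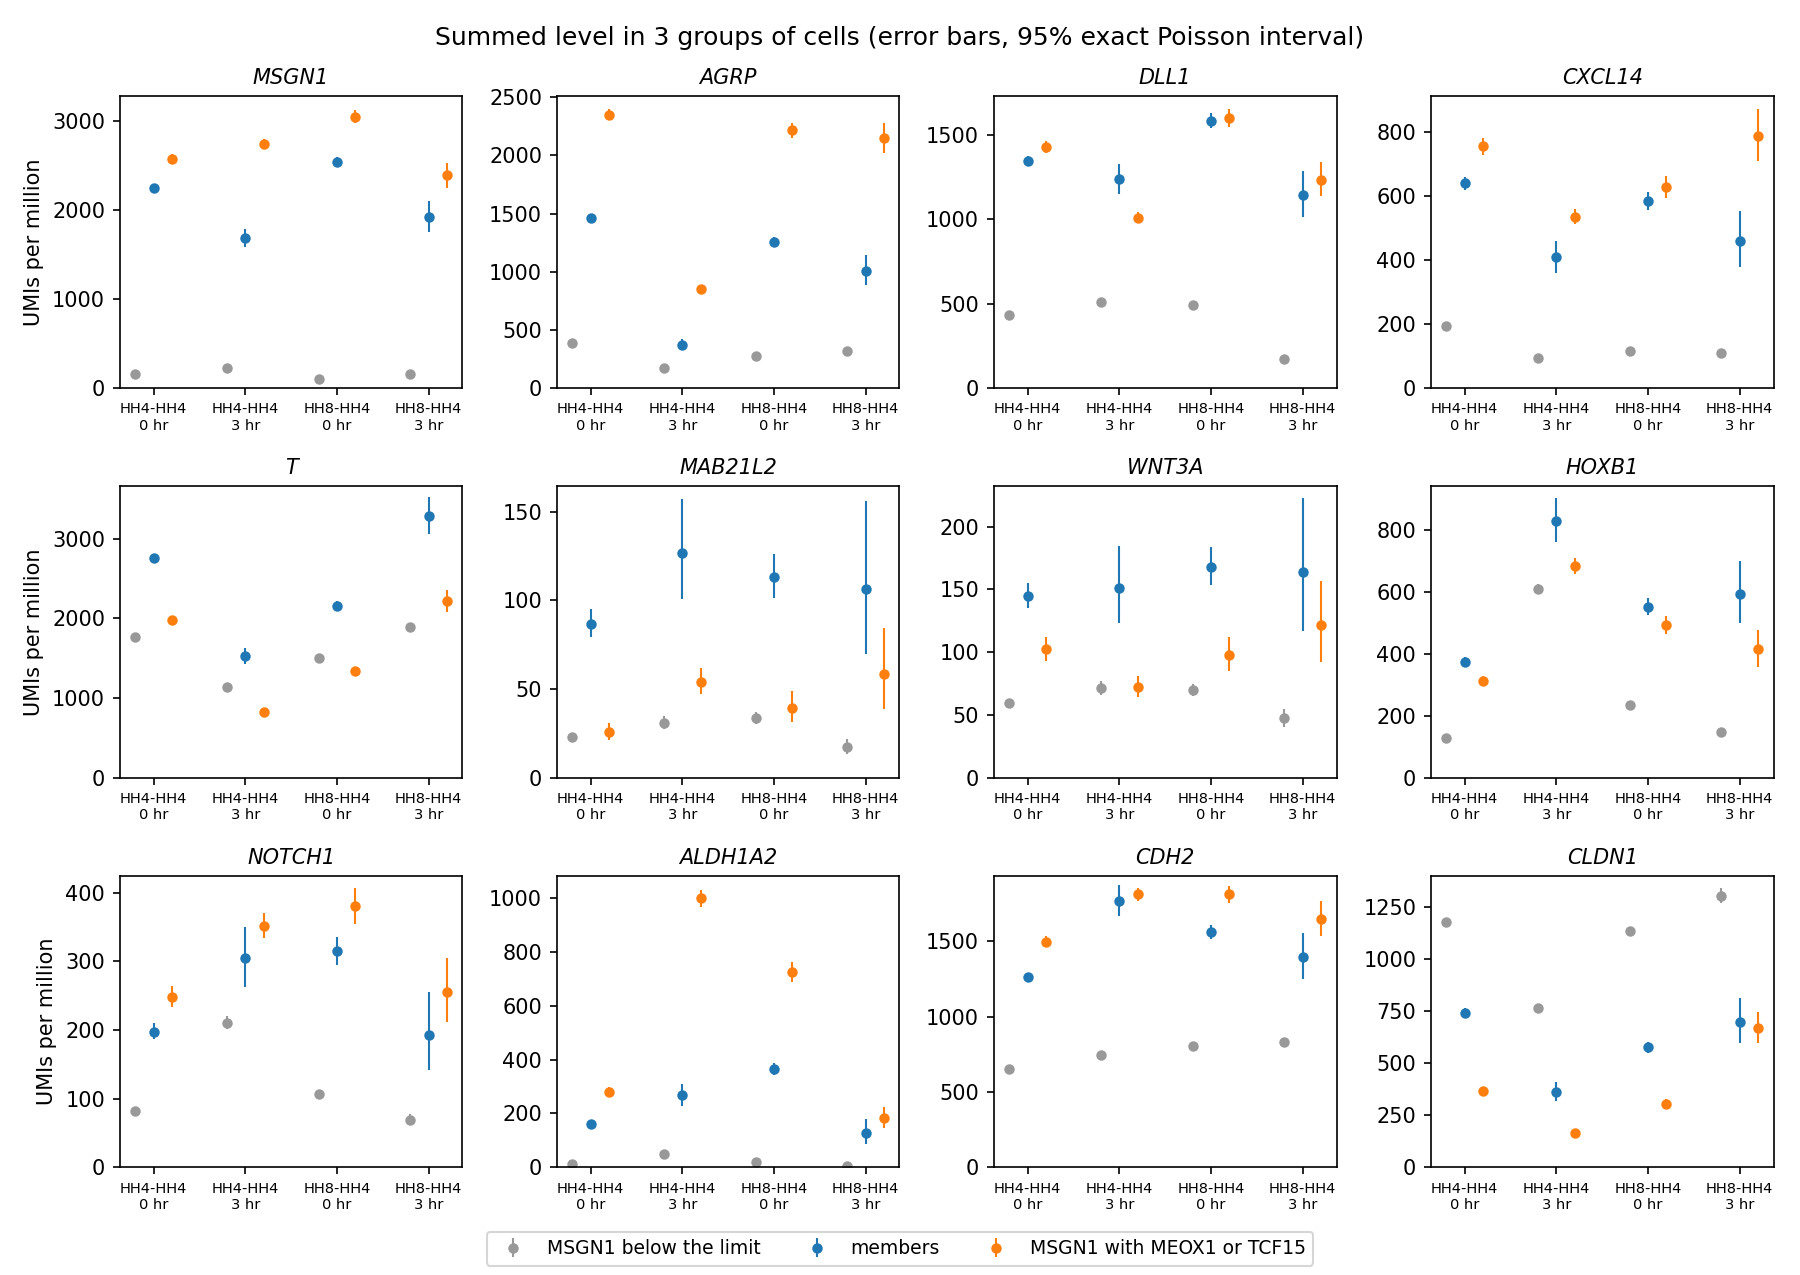
Levels of 12 genes (y axis, UMIs per 1000000, summed over cells) in cells under the MSGN1 limit (grey), members (blue) and MEOX1/TCF15 cells (orange) of each library (x axis), with 95% exact Poisson intervals as error bars. MSGN1, AGRP and ALDH1A2 are highest in the orange group of every library, whereas T, MAB21L2, WNT3A and HOXB1 are highest in members.

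Against all other cells, members of homochronic 0 hr were at least 2-fold higher for 12 genes (0.270% of 4447 genes with 100 or more UMIs, log2 ratios with 10 CPM added) and at least 2-fold lower for 44 (0.989%). The counts were 12 higher (0.309%) and 31 lower (0.798%) of 3883 genes in homochronic 3 hr, 16 (0.396%) and 68 (1.68%) of 4037 in heterochronic 0 hr, and 32 (1.00%) and 73 (2.29%) of 3191 in heterochronic 3 hr. These cells were separated by the expression of these very genes, so the counts describe the contrast and support nothing. The 12 genes named on each side are those with the largest ratios in homochronic 0 hr that had the same sign in all 4 libraries. The minimum of 100 UMIs was not asked of the other libraries, so the sign of a gene at a low level can rest on few UMIs there. On the higher side, 7 of them passed 2-fold in that library, and the other 5 genes past 2-fold (ALDH1A2, AGRP, LEFTY1, ZEB2 and PVALB) did not meet the rule on sign.

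Beside MSGN1, DLL1 and CXCL14, MAB21L2 was at 86.8 (79.3 to 94.8) CPM in members and 23.1 in other cells of homochronic 0 hr (log2 1.55), with ratios of 1.50, 1.47 and 1.90 in homochronic 3 hr, heterochronic 0 hr and heterochronic 3 hr. HOXB1, the anterior Hox gene that is first active in the streak, was at 373 (357 to 389) CPM against 149.6 (log2 1.26), and WNT3A, a Wnt ligand of the streak, at 144 (135 to 155) against 64.4 (log2 1.05). NOTCH1, a receptor for DLL1, was at 198 against 103 CPM (log2 0.88). The adhesion G protein-coupled receptor gene ADGRG6 (log2 1.02), the syndecan gene SDC3 (0.90), the GTPase-activating protein gene ARHGAP8 (0.89), the myogenic factor gene MYF6 (0.88) and the repressor gene HIC1 (0.88) completed the 12. MYF6 was low in absolute terms, at 16.6 CPM in members and 4.4 in the rest. The genes highest in members of homochronic 3 hr were partly others. GATA2 came first, at 74.1 (54.7 to 98.3) against 15.5 CPM in other cells (log2 1.72), on 48 UMIs in members. After MAB21L2 came BRCA2 (1.14), BMP2 (1.11), BRINP1 (1.09) and FGF13 (1.09). In heterochronic 0 hr, MEIS1 (1.30) was also among the 6 highest.

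Of the 12 genes lowest in members, SOX17, CER1, ADMP, GSC and GNOT2 were limited by the rule itself. The others, in homochronic 0 hr, were LOC395991 (log2 -2.90), the endoderm and axial genes HHEX (-2.27) and FOXA2 (-2.26), the T-box gene EOMES (-1.99), the endothelin receptor gene EDNRB (-1.88), MSX1, a target of BMP signalling (-1.83), and the forkhead gene FOXD3 (-1.77). MIXL1 had ratios of -2.88 in homochronic 0 hr, -4.69 in heterochronic 0 hr and -0.91 in heterochronic 3 hr, and 0.05 in homochronic 3 hr. That last value rests on 1 member, and the other 19 were at 8.68 CPM of MIXL1 beside 131 in other cells.

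Markers of other cell types were detected in members, at summed levels that differed by list. The summed level of 11 node and axial genes was 554 CPM in members of homochronic 0 hr and 2016 in cells under the MSGN1 limit, and over single members it ranged from 0 to 4345 CPM, most of it CHRD at 429 CPM. The 10 endoderm genes summed to 105 against 835 CPM, with TTR and HNF4A at 0 UMIs in members. The node and axial list holds GSC, CER1, GNOT2 and ADMP, and the endoderm list SOX17. The rule limits these genes in members, so the lower sums of both lists were set in part by the selection. The 18 genes of lateral, cardiac and blood mesoderm summed to 107 against 199 CPM, with HAND1, HAND2, TBX5, NKX2-5 and CDH5 at 0. They were also lower in members of heterochronic 0 hr (116 against 260 CPM) and heterochronic 3 hr (119 against 202). In homochronic 3 hr they were higher, at 212 CPM in the 20 members, 185 in cells under the MSGN1 limit and 109 in MEOX1/TCF15 cells. The 8 early neural genes summed to 94.7 against 292 CPM in homochronic 0 hr, with LHX2 at 0, and to 57.1 against 54.4 in homochronic 3 hr. In homochronic 0 hr, the 11 epiblast genes, which include the junction genes CLDN1 and GJA1, summed to 2529 against 3323 CPM. SOX2 had 2 UMIs over the members of homochronic 0 hr. The 9 genes of ectoderm and neural border gave 386 and 382 CPM, with DLX3 and DLX6 at 0 in members, and in heterochronic 0 hr 473 against 419.9 CPM. The 8 genes chosen as marks of HH8 tissue summed to 845 against 1015 CPM in homochronic 0 hr, 1963 against 2025 in homochronic 3 hr, 1281 against 1369.8 in heterochronic 0 hr and 1285 against 991 in heterochronic 3 hr. Of these, HOXA7 and HOXB8 had 0 UMIs in members of homochronic 0 hr, 0 and 30 in homochronic 3 hr, 54 and 37 in heterochronic 0 hr, and 8 and 2 in heterochronic 3 hr.

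Lists of related genes add the wider setting. The list of 10 paraxial mesoderm genes was picked by the study on these samples and is no independent evidence of its direction. All 10 were above other cells in homochronic 0 hr and 5 of them at least 2-fold (MSGN1, AGRP, DLL1, CXCL14 and ALDH1A2), with a median log2 ratio of 1.06 beside -0.02 over all genes. In homochronic 3 hr 6 of the 10 were above and none 2-fold. Of 28 measured WNT pathway genes only WNT3A passed 2-fold in homochronic 0 hr (median log2 ratio 0.07), and of 21 FGF pathway genes none did (median -0.02). All 18 genes of G2 and M phase were above the other cells in homochronic 0 hr, none 2-fold (median 0.16), with 15 of 18 in homochronic 3 hr and heterochronic 0 hr and 8 of 18 in heterochronic 3 hr. Their summed level in homochronic 0 hr was 8424 CPM in members and 8493 in MEOX1/TCF15 cells. Glycolysis genes were below the other cells for 15 of 16 (median -0.10), with LDHA past 2-fold. The listed glycolysis genes summed to 13404 CPM in members and 12971 in MEOX1/TCF15 cells of homochronic 0 hr. Stress genes were below for 10 of 12 in homochronic 0 hr (median -0.14), and their summed level was 10006 CPM in members and 10664 in cells under the MSGN1 limit. The same sums were 9491 and 8731 CPM in homochronic 3 hr, 10151 and 10173 in heterochronic 0 hr, and 11630 and 13400 in heterochronic 3 hr. A lower level of stress genes was thus not found in every library.

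In the same comparison, 8 Notch pathway genes were measured, with DLL1 past 2-fold higher and HES4 past 2-fold lower (median log2 ratio -0.11). Of 25 Nodal and BMP pathway genes, 8 were above and 17 below the other cells (median -0.11), with LEFTY1 past 2-fold higher. ALDH1A2 was the 1 of 8 retinoic acid genes past 2-fold (median -0.05). Of 18 genes of epithelial to mesenchymal transition and junctions, ZEB2 was past 2-fold higher and CDH11 and CLDN3 lower (median -0.28). Among 17 matrix and integrin genes HAS2 was past 2-fold lower (median -0.09), and among 27 of migration and guidance CXCL14 was higher and CXCR4 and PDGFA lower (median -0.01). All 5 measured HOX and CDX genes were above the other cells, HOXB1 at least 2-fold (median 0.21), and none of 13 S phase genes passed 2-fold (median 0.05).

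CDH2 (N-cadherin) was at 1261 (1232 to 1290.4) CPM in members and 651 in cells under the MSGN1 limit of homochronic 0 hr, and in heterochronic 0 hr at 1561 (1517 to 1607) against 807. ZEB2, a factor of epithelial to mesenchymal transition, was at 179 against 56.3 CPM, and SNAI2, which encodes another such factor, at 655 against 426 in homochronic 0 hr. SNAI2 is not among the genes listed for homochronic 3 hr. CLDN1, a tight junction gene, was lower in members, at 743 against 1179 CPM, while CDH1 (E-cadherin) stood at 47.6 against 63 and GJA1 (connexin 43) at 998 against 900.0. Per cell in homochronic 0 hr, the median of CDH2 was 1231 CPM in members and 1466 in MEOX1/TCF15 cells. The medians of CLDN1 were 655 and 298 CPM and those of GJA1 887 and 559. High CDH2 was thus not particular to members, which had more CLDN1 than MEOX1/TCF15 cells.

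The comparison with MEOX1/TCF15 cells asks how members differ from them beyond having fewer than 3 UMIs of those 2 genes. In homochronic 0 hr, members were at least 2-fold higher for 7 genes (0.189% of 3697) and at least 2-fold lower for 10 (0.270%). In heterochronic 0 hr there were 7 higher (0.213% of 3281) and 10 lower (0.305%), and in homochronic 3 hr 13 higher (0.414% of 3140) and 31 lower (0.987%). MEOX1 and TCF15 are among the lower genes by the rule. Both groups were divided by genes of the same cells, so these values too are a description.

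CDX2, MAB21L2 and APCDD1, which had some of the largest ratios, were on the members' side. CDX2, a homeobox gene of the posterior embryo, was at 157 (147 to 168) CPM in members and 50.6 (44.1 to 57.8) in MEOX1/TCF15 cells of homochronic 0 hr (log2 1.46), and its ratio was 1.11 in homochronic 3 hr and 1.40 in heterochronic 0 hr. MAB21L2 was at 86.8 (79.3 to 94.8) against 25.7 (21.1 to 30.9) CPM, with ratios of 1.44, 1.09 and 1.32 in the same libraries. APCDD1, an inhibitor of Wnt signalling, was at 37.6 (32.7 to 43) against 9.18 (6.53 to 12.5) CPM, with ratios of 1.31, 1.25 and 1.78. These 3 genes had one direction in all 3 libraries. Of the measured HOX and CDX genes, 3 of 3 were above the MEOX1/TCF15 cells in homochronic 0 hr, 8 of 9 in homochronic 3 hr and 5 of 6 in heterochronic 0 hr, with median log2 ratios of 0.94, 0.30 and 0.49. CDX2 passed 2-fold in all 3 libraries, and CDX1 in heterochronic 0 hr.

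MIXL1 was at 238 (225 to 251) CPM in members and 97.9 (88.7 to 108) in MEOX1/TCF15 cells of homochronic 0 hr (log2 1.20), but at 66.7 and 42.6 in heterochronic 0 hr (0.54). ID4, an inhibitor of helix-loop-helix factors, had a ratio of 1.05 and FOXD3 of 1.05 in homochronic 0 hr. T (brachyury) was at 2755 (2712 to 2799) against 1979 (1937 to 2021) CPM in homochronic 0 hr and 2159 (2107 to 2213) against 1338 (1289 to 1387) in heterochronic 0 hr. Of the 12 measured genes of primitive streak and mesendoderm, 10 were above the MEOX1/TCF15 cells in homochronic 0 hr and 1 at least 2-fold (median log2 ratio 0.47, beside 0.00 over all genes), and 9 of 11 were above in heterochronic 0 hr (median 0.54).

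The Wnt ligand genes WNT3A and WNT8A were also on this side, without passing 2-fold in homochronic 0 hr. WNT3A was at 144 against 102 CPM and WNT8A at 210.1 against 116. WNT11, a ligand of the noncanonical pathway, was on the other side, at 9.7 (7.31 to 12.6) against 31.1 (26 to 36.8) CPM in homochronic 0 hr and 12.9 (9.15 to 17.7) against 44 (35.6 to 53.8) in heterochronic 0 hr. FGF8 differed little in homochronic 0 hr (158 against 133 CPM), and FGF19 was at 111 against 68.2.

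On the side of the MEOX1/TCF15 cells stood genes of paraxial differentiation. FOXC2, a forkhead gene of somitic mesoderm, was at 27.3 (23.2 to 32) CPM in members against 109 (99 to 119) (log2 -1.67) in homochronic 0 hr and had a log2 ratio of -1.34 in heterochronic 0 hr. Its relative FOXC1 was at 3.18 against 20.5 CPM. PTN (pleiotrophin, a secreted growth factor) was at 73.4 (66.5 to 80.8) against 182 (169.5 to 195) (log2 -1.20) and TSPAN18, a tetraspanin gene, at 94.6 against 216 (-1.11). All 5 measured genes of paraxial differentiation were lower in members of homochronic 0 hr, 4 of them at least 2-fold, of which MEOX1 and TCF15 were set by the rule.

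ALDH1A2 and RDH10 were lower in members than in MEOX1/TCF15 cells. Of 5 measured retinoic acid genes, 4 were below the MEOX1/TCF15 cells in homochronic 0 hr, none 2-fold (median log2 ratio -0.58). ALDH1A2, which encodes the enzyme that makes retinoic acid, was at 161 (151 to 172) CPM in members, 281 (266 to 298) in MEOX1/TCF15 cells and 10.3 (9.22 to 11.5) in cells under the MSGN1 limit of homochronic 0 hr. In heterochronic 0 hr the 3 levels were 365, 725 and 20.9, and in homochronic 3 hr 267, 999.9 and 49. RDH10, whose product makes the retinal that ALDH1A2 uses, was at 121, 214 and 38.6 in homochronic 0 hr. Both genes thus stood lowest in cells under the MSGN1 limit, higher in members and highest in MEOX1/TCF15 cells. Thinned to 2000 UMIs, ALDH1A2 was found in 17.4% of members and 3.39% of SOX17 cells of homochronic 0 hr.

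In homochronic 3 hr the genes named as most different from MEOX1/TCF15 cells were partly others. MSX1 (log2 1.35), EPHA4, an ephrin receptor gene (1.25), FGF19 (1.14) and WNT8A (1.13) were higher in the 20 members, and LBX2 (-2.54), ALDH1A2 (-1.87), WNT11 (-1.61) and RGS3, a regulator of G protein signalling (-1.61), lower. HINTW, a gene of the female-specific W chromosome, was also among the higher genes (1.16). The share of HINTW-high cells was 60% of members and 32.6% of MEOX1/TCF15 cells there, and its part in the other differences was not tested. In heterochronic 0 hr, STK10 (1.35), CTTNBP2 (1.18) and CDX1 (1.18) were named as higher beside CDX2, MAB21L2 and APCDD1, and CSPG5 (-1.22) as lower beside MEOX1, TCF15, FOXC2, PTN and WNT11.

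The same genes varied among the members themselves, by the number of MEOX1 plus TCF15 UMIs. In homochronic 0 hr, MAB21L2 was at 116 (104 to 130.5) CPM in the 190 members with 0 UMIs, 64.9 (53.5 to 78) in the 122 with 1 and 59.9 (47.6 to 74.4) in the 90 with 2. CDX2 was at 196 (179 to 214), 143 (126 to 162) and 103 (86.7 to 121) CPM in the same members, and FOXC2 at 18.1 (13.2 to 24.1), 27.9 (20.6 to 36.9) and 43.8 (33.5 to 56.4). In heterochronic 0 hr, CDX2 was at 359, 300.4 and 209 CPM, APCDD1 at 105, 64.6 and 33.8, and ALDH1A2 at 279, 421 and 497. With each added UMI, CDX2 and CLDN1 were lower and FOXC2 and ZEB2 higher in both libraries. The median depth of the 3 groups of members was 13145.5, 13933 and 13623.5 UMIs in homochronic 0 hr and 7651, 8373 and 8725 in heterochronic 0 hr.

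**Figure D3:**
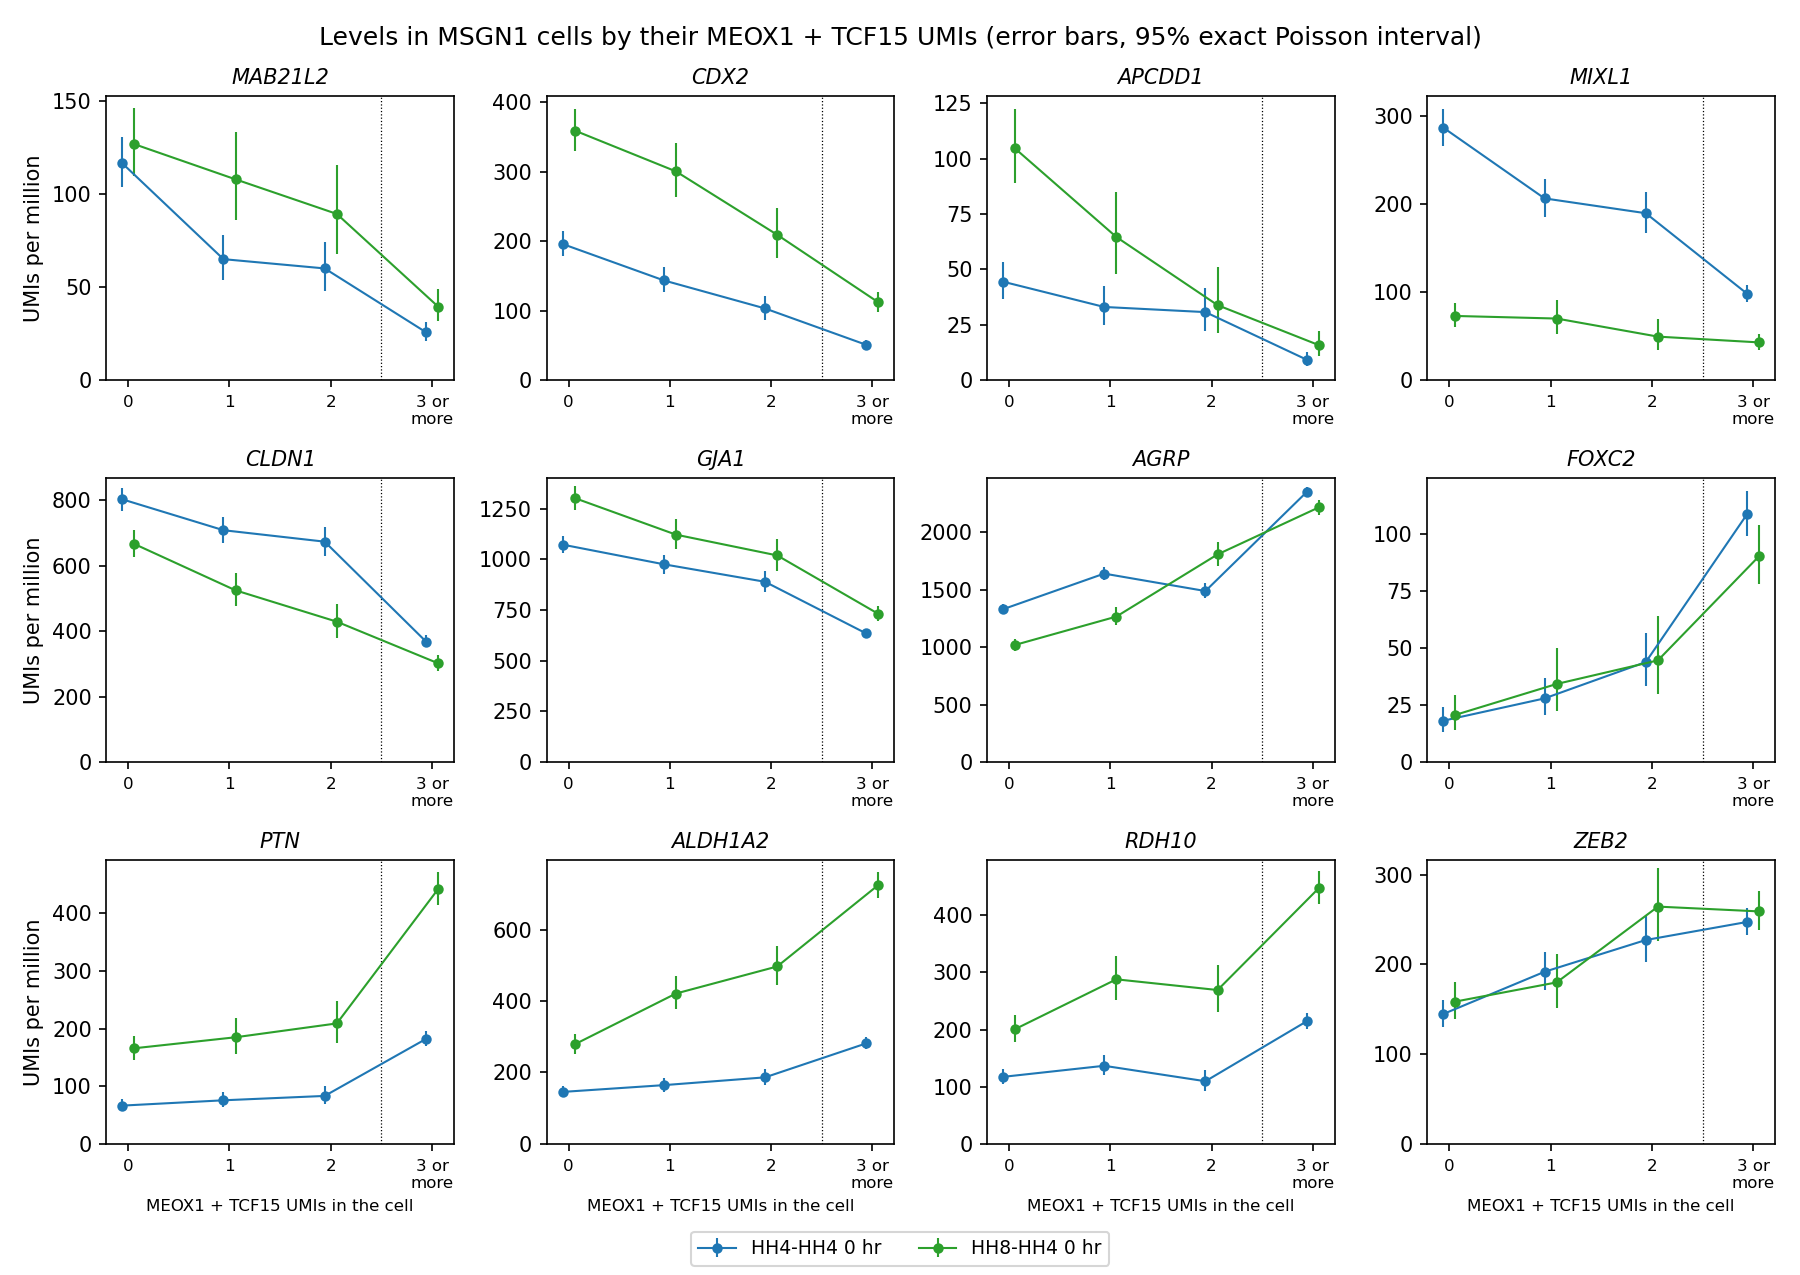
Levels of 12 genes (y axis, UMIs per 1000000, summed over cells) in MSGN1 cells with 0, 1, 2 and 3 or more UMIs of MEOX1 plus TCF15 (x axis) in homochronic 0 hr (blue) and heterochronic 0 hr (green), with 95% exact Poisson intervals as error bars and a dotted line at the limit of the members. MAB21L2, CDX2, APCDD1, MIXL1, CLDN1 and GJA1 step down towards the right, and FOXC2, PTN and ALDH1A2 step up.

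Members also differed by their MSGN1 level. In homochronic 0 hr, 201 had 1000 to 2000 CPM of MSGN1, 164 had 2000 to 4000 and 37 had 4000 or more, at median depths of 14451, 12363 and 10893 UMIs. From the first to the last of these groups MIXL1 was at 339.6 (319 to 361), 134 (119 to 149.8) and 60.3 (39.7 to 87.7) CPM, CLDN1 at 871, 613 and 502, and ALDH1A2 at 103 (91.8 to 115), 219.5 (200.3 to 240.1) and 272 (226 to 325). In heterochronic 0 hr, with 123, 177 and 41 members, ALDH1A2 was at 169, 447 and 636 CPM, PTN at 85.2, 221 and 308, and GJA1 at 1459, 1086 and 792. Members with more MSGN1 thus had more ALDH1A2 and less CLDN1 in both libraries, while DLL1 went from 1276 to 1427 CPM in homochronic 0 hr and from 1427 to 1752 in heterochronic 0 hr.

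Donor and host members could be compared only in the homochronic grafts. Of the 402 members of homochronic 0 hr, 154 (38.3%, 33.5 to 43.3) had an eGFP UMI and 123 (30.6%) had 3 or more. Among other cells of that library 34.0% (32.0 to 36.0) had an eGFP UMI and 26.0% had 3 or more. Thinned to 2000 UMIs, the shares with an eGFP UMI were 28.6% (24.2 to 33.3) of members and 25.4% (23.6 to 27.2) of other cells. In homochronic 3 hr, 5 of 20 members had an eGFP UMI (25%, 8.66 to 49.1), and of other cells 34.4% (28.6 to 40.6), intervals that overlap widely. Members with and without eGFP in homochronic 0 hr had close levels of MSGN1 (2248 and 2252 CPM), DLL1 (1329 and 1355) and CDH2 (1257 and 1263). Beside eGFP, the largest ratios were in HINTW (log2 2.17), LOC100857579 (1.76) and ARHGAP15 (1.58), and in LOC769852 on the other side (-1.45). Between members of that library with 500 CPM or more of HINTW and those with less, eGFP itself had a log2 ratio of 3.35. LOC100857579 had 3.34, ARHGAP15 1.69 and LOC769852 -2.04. Donor origin is thus confounded with the HINTW level in this comparison.

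HINTW lies on the W chromosome, which female birds alone carry, so its level separates cells of the pooled embryos. Members with 500 CPM or more of HINTW made up 34.3% (29.7 to 39.2) in homochronic 0 hr, 60% (36.1 to 80.9) in homochronic 3 hr, 66.6% (61.3 to 71.6) in heterochronic 0 hr and 53.3% (26.6 to 78.7) in heterochronic 3 hr. Among other cells the shares were 31.1% (29.2 to 33.0), 51.8% (45.4 to 58.1), 39.6% (37.1 to 42.3) and 34.1% (27.8 to 40.8). In heterochronic 0 hr, members were thus drawn more from HINTW-high embryos than other cells were. MEOX1/TCF15 cells of that library were at 56.8% (50.1 to 63.4) and cells under the MSGN1 limit at 36.4% (33.6 to 39.3), so a high share was not particular to members. Within that library, HINTW-high and HINTW-low members held 48.8 and 16.8 CPM of CDX1, 85.1 and 157 of LEFTY1, 222 and 103 of PTN and 422 and 258 of ALDH1A2. In homochronic 0 hr the order was the opposite for PTN (41.3 and 90.1), ALDH1A2 (129.5 and 178) and LEFTY1 (436 and 309). Embryos within the HINTW-high or HINTW-low cells of a library cannot be told apart.

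Members of the 3 hr libraries were set against those of the 0 hr libraries, with 1 library for each graft and time, so the values compare libraries. In the homochronic grafts the median depth of members was 32382 UMIs at 3 hr and 13449.5 at 0 hr. The limit in UMIs on MEOX1 plus TCF15 was thus stricter at 3 hr. HINTW-high cells were 60% of members at 3 hr and 34.3% at 0 hr. The part of depth and of HINTW in the differences was not tested. In the homochronic grafts, members at 3 hr were at least 2-fold higher than at 0 hr for 49 genes (1.43% of 3423) and at least 2-fold lower for 72 (2.10%), on 20 members against 402. For other cells the counts in the same comparison were 66 and 74 of 4519 genes.

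Posterior genes were higher at 3 hr. CDX1 was at 147 (119 to 179) CPM in the 20 members and 9.35 (7 to 12.2) in the 402 (log2 3.02), CDX2 at 738 (673 to 807) and 157 (147 to 168) (2.16), and CDX4 at 489.5 (437 to 547) and 70.4 (63.7 to 77.7) (2.64). All 4 measured HOX and CDX genes were higher, each at least 2-fold, HOXB1 among them at 829 against 373 CPM. CDX4 was found in 90% of the members at 3 hr and 37.8% at 0 hr, and in 40% and 11.9% after thinning. PTN (log2 2.50), APCDD1 (2.33) and STRA6, a receptor for retinol uptake (2.26), were the other genes named as higher. In other cells of the same libraries the log2 ratios were 3.10 for CDX1, 2.29 for CDX2 and 3.24 for CDX4. They were 3.21 for PTN and 2.60 for APCDD1, so the higher levels of these genes were not particular to members.

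LEFTY1, CFC1 and CHRD were lower at 3 hr. LEFTY1, a Nodal inhibitor, was at 7.72 (2.51 to 18) CPM at 3 hr and 352 (337 to 368) at 0 hr (log2 -4.35), CFC1, a Nodal coreceptor, at 30.9 (18.9 to 47.7) and 205 (194 to 217) (-2.40), and CHRD (chordin, a BMP antagonist) at 54.1 (37.6 to 75.2) and 429 (412 to 447) (-2.78). EOMES (-2.34), POMC (-2.08) and the tubulin gene TUBB4B (-2.08) were also named as lower. In other cells of the same libraries the log2 ratios were -2.48 for LEFTY1, -0.68 for CHRD and -3.42 for EOMES. Of 17 measured Nodal and BMP pathway genes, LEFTY1, CFC1, CHRD and FST were at least 2-fold lower and MSX1 higher, with 10 above 0 and a median log2 ratio of 0.10, and the 28 listed genes summed to 1937 CPM at 3 hr and 2545 at 0 hr. At 3 hr 4 of 20 members had a LEFTY1 UMI, at 0 hr 340 of 402. Of the marker genes, AGRP was more than 2-fold lower at 3 hr, while MSGN1, DLL1 and CXCL14 were within 2-fold. Per cell, the median of AGRP was 264 CPM at 3 hr and 1251 at 0 hr. Single members at 3 hr ranged from 0 to 8709 CPM, the highest being a shallow cell of 4593 UMIs.

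The members of heterochronic 3 hr stood on the other side for the same genes. Against heterochronic 0 hr they were at least 2-fold higher for 15 genes (0.534% of 2810) and at least 2-fold lower for 51 (1.81%), on 15 against 341 members. The largest ratio was that of MIXL1, at 1220 (1085 to 1367) CPM at 3 hr and 66.7 at 0 hr (log2 4.00). The 6 members with 2000 CPM or more of MIXL1 held 201 of its 298 UMIs. SPRY2 (1.62) and HSPA2 (1.55) were also among the 6 highest, and VGLL4 (-2.38), RDH10 (-2.29), NDP (-2.26) and LSAMP (-2.11) among the 6 lowest. LEFTY1 was at 692 (591 to 804) CPM at 3 hr and 109.9 (98.2 to 123) at 0 hr, CHRD at 684 (584 to 796) and 128 (115 to 141), CDX4 at 32.7 (14.1 to 64.5) and 162 (147 to 177), and PTN at 24.6 (9.01 to 53.5) and 181 (166 to 197). LEFTY1 and CHRD were about as high in the 9 members under 2000 CPM of MIXL1 (689 and 679.6 CPM) as in the 6 at or over it (705 CPM of each). Of the 9, 1 held 4503 CPM of CHRD. These 9 were not free of MIXL1, with 474 CPM in sum against 66.7 in members of heterochronic 0 hr. CDX4 was at 39.1 CPM in these 9 and had 0 UMIs in the 6. Of 14 measured Nodal and BMP pathway genes, LEFTY1, ID2 and CHRD were at least 2-fold higher and none lower (median log2 ratio 0.18), and the list summed to 3676 CPM at 3 hr and 2229.9 at 0 hr. Other cells of these libraries had the same directions, with 265 against 34.3 CPM of LEFTY1 and 19.2 against 125 of CDX4, so that cells without eGFP of the heterochronic 3 hr library as a whole stood apart from those of homochronic 3 hr (18.5 and 477 CPM). Time, graft and the embryos pooled in 1 library cannot be told apart here.

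**Figure D4:**
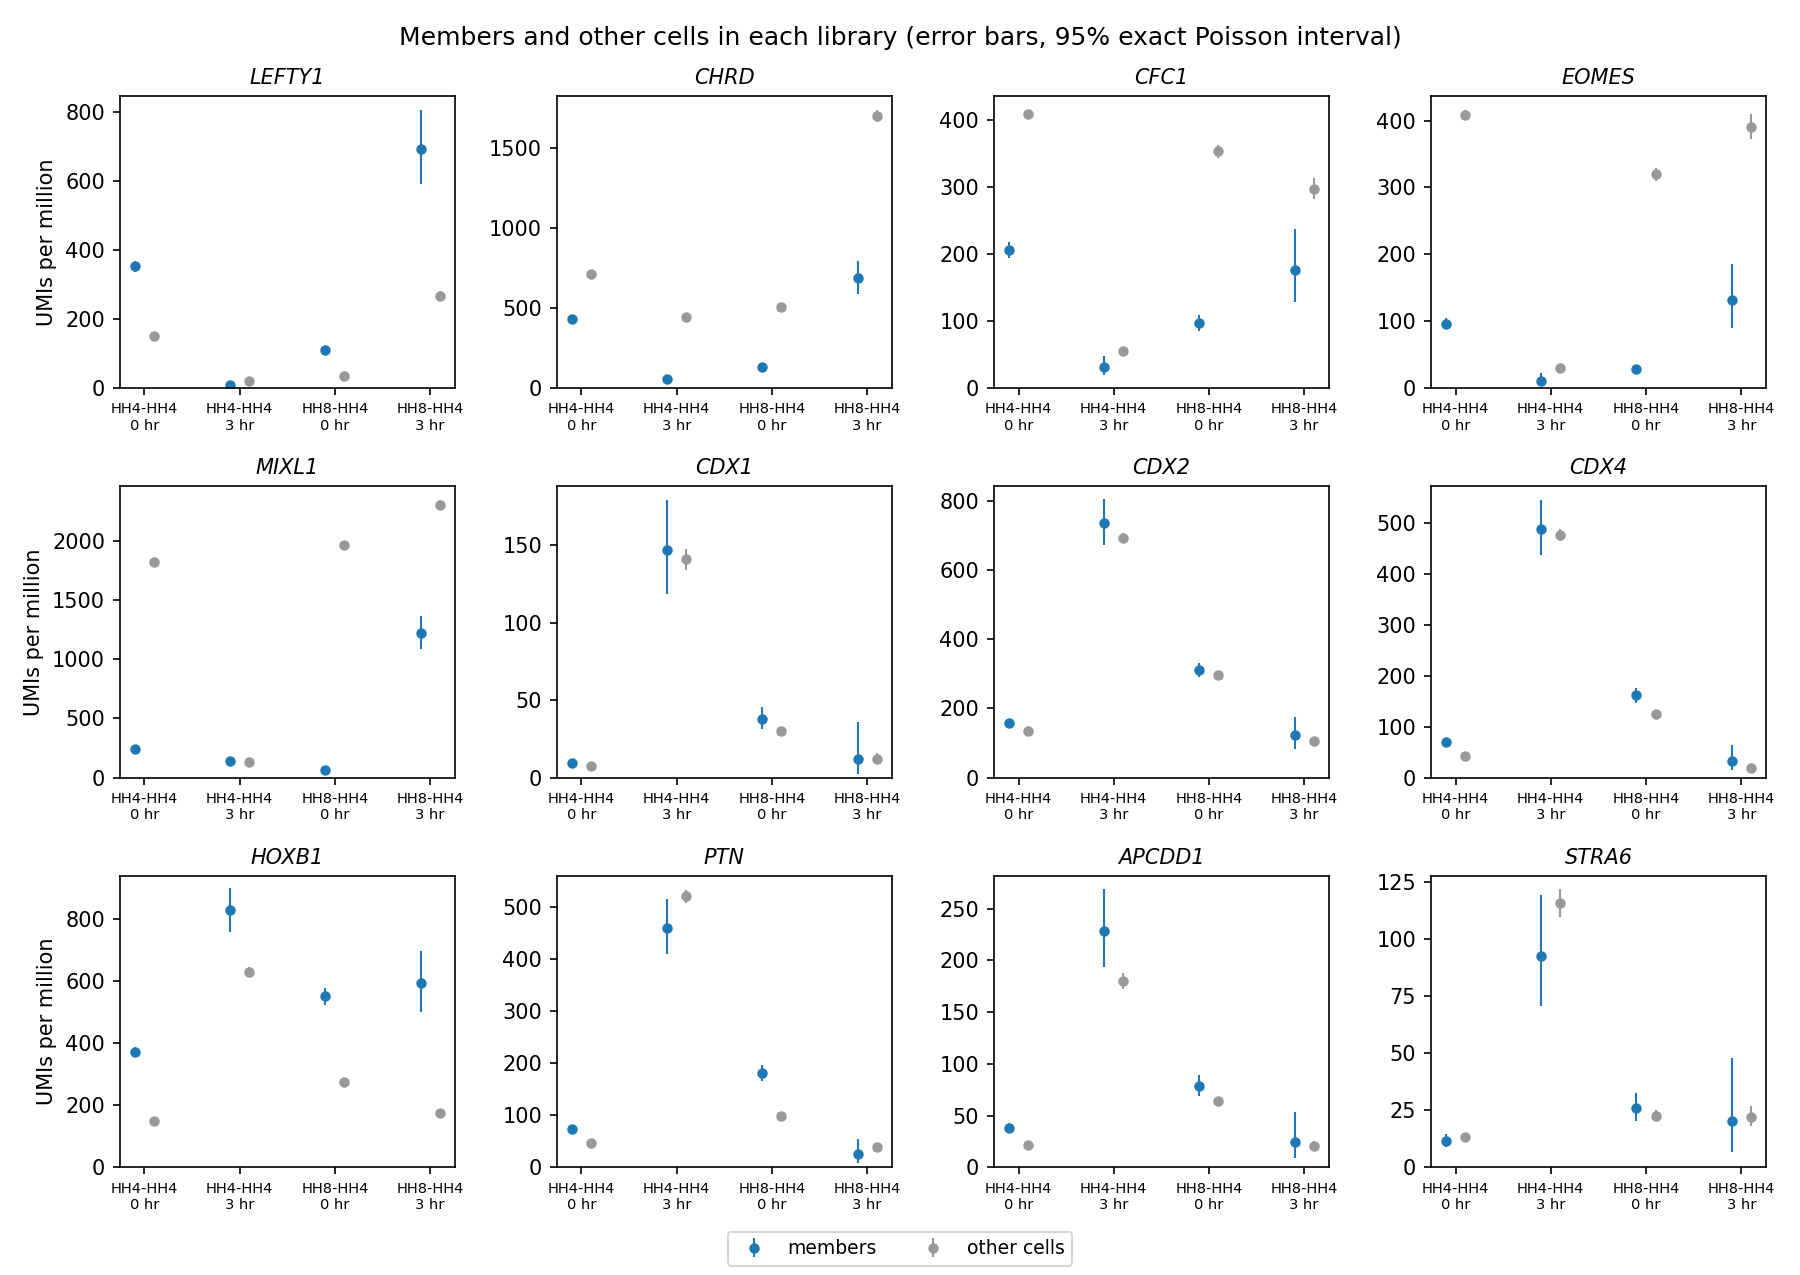
Levels of 12 genes (y axis, UMIs per 1000000, summed over cells) in members (blue) and other cells (grey) of each library (x axis), with 95% exact Poisson intervals as error bars. In members, LEFTY1, CHRD and EOMES are lowest in homochronic 3 hr and highest in heterochronic 3 hr, and CDX1, CDX2, CDX4, PTN and APCDD1 are highest in homochronic 3 hr.

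At 0 hr, members without eGFP were compared between heterochronic and homochronic libraries (341 and 248 cells), which asks whether host members beside the 2 kinds of graft differ at collection. They were at least 2-fold higher beside HH8 grafts for 10 genes (0.290% of 3444) and lower for 6 (0.174%). In cells under 500 CPM of HINTW the number of genes past 2-fold was 6 in place of 16. HINTW was at 7586 CPM against 1619.7 (log2 2.22), and LOC100857579 and HNRNPKL, which also followed HINTW among members of both 0 hr libraries, had ratios of 1.96 and 1.20. The share of HINTW-high cells is thus confounded with the graft in this comparison.

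Of the other genes, CDX1 was at 37.8 (31.1 to 45.5) CPM beside HH8 grafts and 7.95 (5.28 to 11.5) beside HH4 grafts (log2 1.41). The histone genes HIST1H101 (1.37) and HIST1H111L (1.20) were also higher, and belong to a family of near-identical genes between which reads may be split. MIXL1 was lower, at 66.7 (57.7 to 76.7) against 281 (264 to 299) CPM (-1.93), with CHRD (-1.53), LEFTY1 (-1.51), EOMES (-1.24), CFC1 (-1.16) and SFRP1, a Wnt antagonist (-1.15). Between HINTW-high and HINTW-low members of heterochronic 0 hr, CDX1 had a log2 ratio of 1.14, HIST1H111L of -1.08 and CFC1 of -1.05. HOXA7, one of the marks of HH8 tissue, had 344 UMIs in other cells without eGFP beside HH8 grafts and 1 beside HH4 grafts (log2 1.84), and 54 and 0 in members of the same libraries. The listed HOX and CDX genes summed to 1162 CPM in members of heterochronic 0 hr and 619 in those of homochronic 0 hr, with and without eGFP. The part of donor cells without captured eGFP in these values was not tested. In other cells without eGFP, 11 genes (0.250% of 4406) were at least 2-fold higher in the same comparison and 1 (0.0227%) lower. That 1 gene was LEFTY1, at 34.3 against 153 CPM (log2 -1.88), and HIST1H101 was among the higher genes (1.49). The ratios of LEFTY1 and HIST1H101 were thus not particular to members, while MIXL1 and CHRD did not pass 2-fold lower in other cells. The 3 hr libraries were not compared in this way, with 15 members without eGFP on each side.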

How the data were processed

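Single-cell libraries were prepared from dissected grafts with the 10x Genomics 3′ workflow. The authors counted UMIs with CellRanger 6.1.1 (per the file headers) on the chicken build galGal6, and deposited whole-number counts per gene and cell without normalisation. The deposited depth of members ranged from 2100 to 79543 UMIs per cell.

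Members and gene lists were chosen with earlier results of these data known. UMIs of all cells of a class were added up and expressed per 1000000 (CPM). Before log2 ratios were taken, 10 CPM was added to each level. Genes needed 100 UMIs in both groups together, and 2-fold was the limit. The 12 highest and 12 lowest genes are named for members against other cells in homochronic 0 hr. In other comparisons 6 and 6 were picked, and not all of them are given above. Levels were also computed for all genes of the lists and of the rule. Intervals are 95% exact Poisson or Clopper-Pearson. Cells, which share a library, are not replicates, so no tests were run. Scrublet (scanpy 1.11.5) marked 2 members as doublets, and marked cells were kept. The ratios were also computed on simulated counts, whose outcome is not given here and is not used as evidence. A gene of the Nodal and BMP pathway list is not reported here. Alternatives changed the limits, depth, doublets, HINTW and the scale. Scripts ran in Python 3.11.15 with pandas 2.3.3, scipy 1.17.1, numpy 2.4.6 and, for plots, matplotlib 3.10.9.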

Additional observations from a re-analysis of the deposited data

Results flagged for a closer look

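Among 2809 genes measured in both, 11 differed at least 2-fold between members at 3 hr and 0 hr in opposite directions in the homochronic and heterochronic grafts, and the difference was not tested. The log2 ratios of 3 hr against 0 hr, in homochronic and then heterochronic members, were -4.35 and 2.55 for LEFTY1, -2.78 and 2.33 for CHRD and -2.34 and 1.90 for EOMES. They were 3.02 and -1.10 for CDX1, 2.16 and -1.27 for CDX2, 2.64 and -2.00 for CDX4, 2.50 and -2.46 for PTN, 2.33 and -1.35 for APCDD1 and 1.94 and -1.18 for WNT5A. HINTW had 1.09 and -1.04 and HNRNPKL 1.67 and -1.15. In other cells, the same pair of signs was found for all 11 genes, EOMES with the smallest heterochronic ratio, at -3.42 and 0.28. Levels in members at 0 hr already differed between the grafts. In homochronic and then heterochronic 0 hr they were 352 and 110 CPM for LEFTY1, 429 and 128 for CHRD, 157 and 310 for CDX2 and 73.4 and 181 for PTN. Whether the stage or the label of the heterochronic 3 hr library is as given was also not tested. The ratios rest on 20 and 15 members at 3 hr. CDX1 and CDX4 had 3 and 8 UMIs in all heterochronic 3 hr members.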

How the results depend on the processing

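With 1 library per condition and cells selected on expression, depth and the limits of the rule set how far these values reach, and counting intervals understate the error between embryos. The pooled share of members (15.8%) was 21.1% with MSGN1 at 500 CPM or more, 8.76% at 2000 CPM, 12.9% in cells of at least 10000 UMIs, 11.2% with MEOX1 plus TCF15 under 100 CPM, 7.85% at 0 UMIs, 26.8% after thinning to 2000 UMIs and 12.8% in cells under 500 CPM of HINTW. Genes at least 2-fold higher in members than in other cells of homochronic 0 hr (12) numbered 33 after thinning, 22 in cells under 500 CPM of HINTW and 35 with 1 CPM added, and genes lower (44) 98 with 1 CPM added. The count between members at 3 hr and 0 hr (121) was 204 with MSGN1 at 2000 CPM, 252 in cells under 500 CPM of HINTW and 202 with 1 CPM added. Between members beside HH8 and HH4 grafts (16) it was 6 in cells under 500 CPM of HINTW and 32 with 1 CPM added, and against MEOX1/TCF15 cells (17) it was 6 with MSGN1 at 2000 CPM and 38 with 1 CPM added. The share of members with eGFP in homochronic 0 hr (38.3%) was 18.2% in cells under 500 CPM of HINTW. The cause of these shifts was not tested. The other 79 of these values, among them that without the heterochronic 3 hr library (16.2%) and that without the homochronic 3 hr member highest in MIXL1 (134 genes), both chosen after seeing the data, stayed close to the main ones, and no called gene changed sign. Of the results outside these values, 147 moved and 569 stayed close. Among results for single genes, 18 moved and 19 stayed close after thinning. With 1 CPM added 23 moved and 26 stayed close, and with MEOX1 plus TCF15 at 0 UMIs 21 and 26. Scrublet marked under 0.5% of cells in 2 libraries, so leaving out its calls says little there. No paired analysis was possible because each condition has 1 library.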
